A study of Mus musculus with 5 samples.

Results

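The clustered protocadherin genes lie side by side on chromosome 18 of the mouse in 3 arrays, Pcdha, Pcdhb and Pcdhg. They were taken as every gene of the GENCODE M21 annotation (mm10) on that chromosome whose symbol begins with Pcdha, Pcdhb or Pcdhg, which gave 58 of the 55413 genes of that annotation. Pcdha holds 14 of them, Pcdhb 22 and Pcdhg 22, and 57 are annotated as protein-coding. The remaining one, Pcdhgb8, is annotated as a polymorphic pseudogene, and 2 neighbouring Pcdha genes carry the same symbol, Pcdha11. Sites bound by Gfi1 and Lsd1 were mapped by ChIP-seq, the sequencing of DNA precipitated with each factor, in MG tumors, a mouse model of medulloblastoma. For these tumors, Prominin1-positive, lineage-negative stem cells were sorted from C57BL/6 cerebella at postnatal day 5 to 7, given retroviral Myc and Gfi1, and grown in the cerebella of NSG mice, which lack most of their lymphocytes. Both factors were immunoprecipitated from each of 2 tumors, numbered 39 (replicate 1) and 41 (replicate 2), with a rabbit polyclonal antibody in each case. The Gfi1 bound in these cells is thus in part the product of the retrovirus that drives the tumor. An input of pooled MGB tumors, which carry Myc and Gfi1b, is listed as the control and was not analysed here, and there is no group without the factors.

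Clustered protocadherins are cell surface proteins of the cadherin superfamily by which neurons tell their own processes from those of other cells. In Pcdha and Pcdhg each variable first exon has its own promoter and is spliced to a shared set of constant exons that encode the common cytoplasmic end, whereas Pcdhb genes are mostly single exons. Neurons choose a few of the alternate promoters at random, a choice that depends on CTCF, cohesin and distal enhancers, while the C-type genes at the end of Pcdha and Pcdhg are chosen far more uniformly. Gfi1 is a zinc finger repressor that recruits cofactors, and Lsd1 is a histone demethylase among them.

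The 4 peak lists held from 25078 peaks (Gfi1, tumor 41) to 36836 peaks (Gfi1, tumor 39), with median widths from 1443 to 1765 bp. The lists give a position and a score for each peak and no read counts, so that the depth behind a peak is unknown. A gene without a peak is one at which none passed the authors' peak-calling threshold. The study reports the mapped reads of each library, and for each factor the library with fewer mapped reads gave the longer list. The score was used only as its percentile within a list, from 0 (lowest) to 100 (highest), because the lists differ in length and depth. A gene was counted as having a start-site peak when a peak came within 1000 bp of the transcription start site (TSS) of its first exon.

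Nearly all clustered protocadherin promoters were without a peak of either factor. In tumor 39, Gfi1 had a start-site peak at 5 of the 58 genes (8.62%) and Lsd1 at 2 (3.45%). In tumor 41, Gfi1 had one at 2 genes (3.45%) and Lsd1 at 4 (6.90%). Of all 21938 protein-coding genes, 61.5% and 55.3% had a Gfi1 and an Lsd1 peak in tumor 39, and 50.8% and 58.3% in tumor 41. Only Pcdhgc3 and Pcdhgc4 were occupied in all 4 lists, which is 3.45% of the 58 genes against 49.7% of all protein-coding genes. In none of the lists was a start-site peak present at 52 genes (89.7%), against 37.0% of all protein-coding genes. A single gene, Pcdhgb6, had a peak in 2 lists, and 3 genes, Pcdhac2, Pcdhgb7 and Pcdhga12, had one in 1 list.

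**Figure D1:**
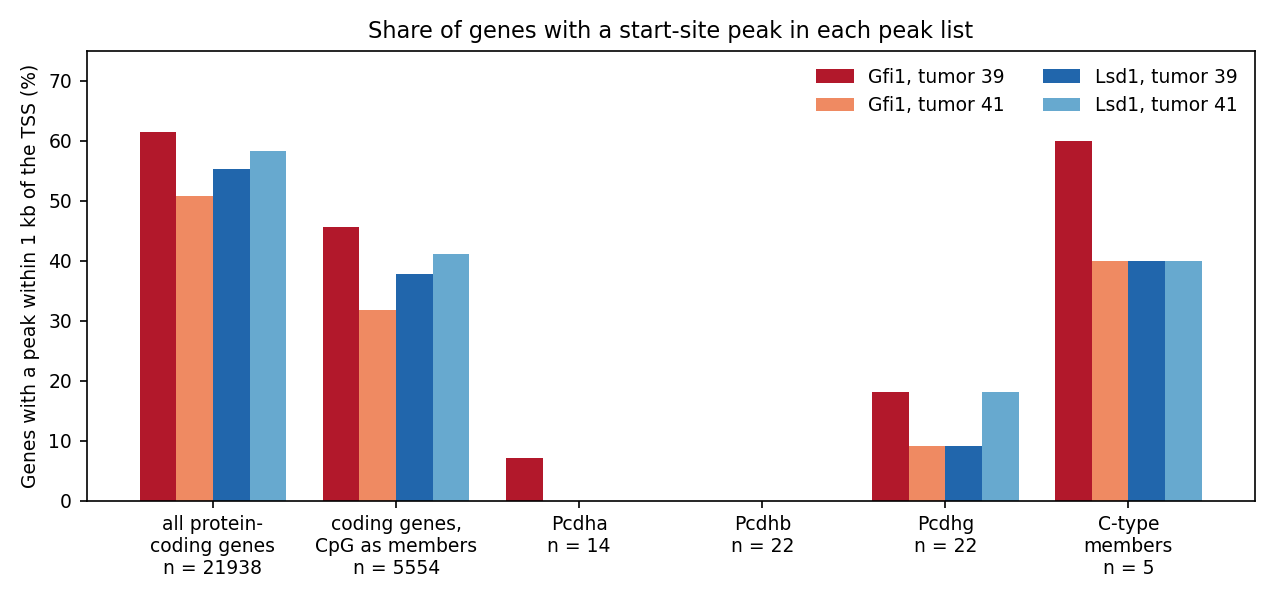
Percentage of genes with a peak within 1 kb of the TSS (vertical axis) in each of the 4 peak lists (bar colors), for all protein-coding genes, for protein-coding genes with a CpG count like that of the clustered protocadherins, and for the 3 clusters and the 5 C-type genes; each bar is 1 library, so that there are no error bars. No bar stands over Pcdhb, and a single one, of 7.14%, over Pcdha, while every list reached 50.8% or more of all protein-coding genes.

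The factors were then compared over the tumors. On average 6.03% ± 3.66 (SD, n = 2 tumors) of the genes had a Gfi1 peak and 5.17% ± 2.44 (SD, n = 2) an Lsd1 peak. The difference of 0.862 percentage points was smaller than the spread between the tumors (two-sided exact permutation test over the 4 libraries, p = 1). With 2 libraries against 2 this test cannot give a p below 0.333.

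Pcdha was empty apart from its last gene. The 12 alternate genes from Pcdha1 to Pcdha12 and the C-type gene Pcdhac1 had no start-site peak in any list. For the 12 alternate genes, the distance from the TSS to the nearest peak was never under 123176 bp and reached 207025 bp. Pcdhac2, from 37143503 to 37187657 on chromosome 18, had a Gfi1 peak in tumor 39 from 37143325 to 37144554, which is 1230 bp wide and stood at percentile 37.6. It had no peak for Gfi1 in tumor 41 or for Lsd1 in either tumor, where the nearest peak was 73970 to 74234 bp from its TSS. The Pcdhac2 peak was therefore seen in 1 of 4 libraries and not in the other tumor.

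In Pcdhb, from 37264938 to 37524479, no peak of any kind was present. None of the 4 lists held a peak at the start sites of the 22 genes, on their exons or between them, over 260 kb. The nearest peaks were 46134 to 207963 bp from these start sites. All lists were alike in this, so that no difference between the factors or the tumors could be seen at Pcdhb.

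Among the 19 alternate genes of Pcdhg, 3 had a start-site peak in at least 1 list, all narrow and with low scores. Pcdhgb6 had a Gfi1 peak of 780 bp at percentile 19.8 in tumor 39. At the same gene the Lsd1 list of tumor 41 held a peak of 790 bp at percentile 0.449, close to the lowest score in that list. Neither factor was thus found at Pcdhgb6 in both tumors. Pcdhgb7 had a Gfi1 peak of 931 bp at percentile 15.7 in tumor 39 alone. Pcdhga12 had an Lsd1 peak of 850 bp at percentile 14.3 in tumor 41 alone, which began 709 bp after the TSS. A start of the gene Gm26672 is also annotated within 1000 bp of that peak. Further Gfi1 peaks of tumor 39 lay over 1000 bp from the TSS on the first exons of Pcdhgb4, at percentile 34.0, and of Pcdhgb6, at percentile 18.4. The Gfi1 list of tumor 41 and the Lsd1 list of tumor 39 had no peak at the start site or on the first exon of any of the 19 genes.

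The 5 C-type genes differed among themselves. At their start sites, Pcdhgc3 and Pcdhgc4 were occupied by both factors in both tumors, Pcdhac2 in 1 list, and Pcdhac1 and Pcdhgc5 in none. Thus 40% of the 5 had a peak in every list and 40% in none. Over all protein-coding genes these shares were 49.7% and 37.0%, so that the C-type genes as a group stood near the ordinary share. Pcdhgc3 lies from 37806364 to 37841873 on the plus strand. Its Gfi1 peak stood at percentile 85.9 in tumor 39 and 84.9 in tumor 41, and its Lsd1 peak at 71.2 and 80.2. The Gfi1 percentile was the higher of the pair in both tumors, and the ranges of the factors did not overlap, though each percentile is a rank within a list of its own length. Over all protein-coding genes with a start-site peak, the median percentile was 82.3 and 77.5 in the Gfi1 lists and 78.8 and 80.8 in the Lsd1 lists, so that Pcdhgc3 stood near the middle of occupied promoters. The Gfi1 peaks were 3377 and 2811 bp wide and the Lsd1 peaks 2584 and 2732 bp. They began between -767 and -697 bp from the TSS, ended 1856 to 2679 bp after it and covered from 54.9% to 79.3% of the first exon. BC037039, annotated as an antisense transcript, starts within the same first exon, and ChIP reads carry no strand, so that the peak cannot be given to one of these genes alone.

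Pcdhgc4, from 37815079 to 37841873, had lower values and a wider spread. Its Gfi1 peak stood at percentile 67.4 in tumor 39 and its highest Gfi1 peak at 36.3 in tumor 41. For Lsd1 the percentile was 49.2 in tumor 39 and 60.8 in tumor 41. The ranges of the factors overlapped, and the order of the tumors was opposite in Gfi1 and Lsd1. In tumor 41 the Gfi1 signal was split into 2 peaks of 1172 and 856 bp, where the other lists had a single one of 1973 to 2377 bp. All 4 percentiles lay below those of Pcdhgc3 in the same list. At Pcdhgc5, the last first exon of the array, the nearest peak lay 2122 bp after the TSS in the Gfi1 list of tumor 39 and 2996 to 3179 bp away in the other lists. That Gfi1 peak, from 37821635 to 37823187, overlapped the end of the first exon, which is 2622 bp long, and stood at percentile 46.4. A start of the gene Gm38182 is annotated within 1000 bp of it.

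**Figure D2:**
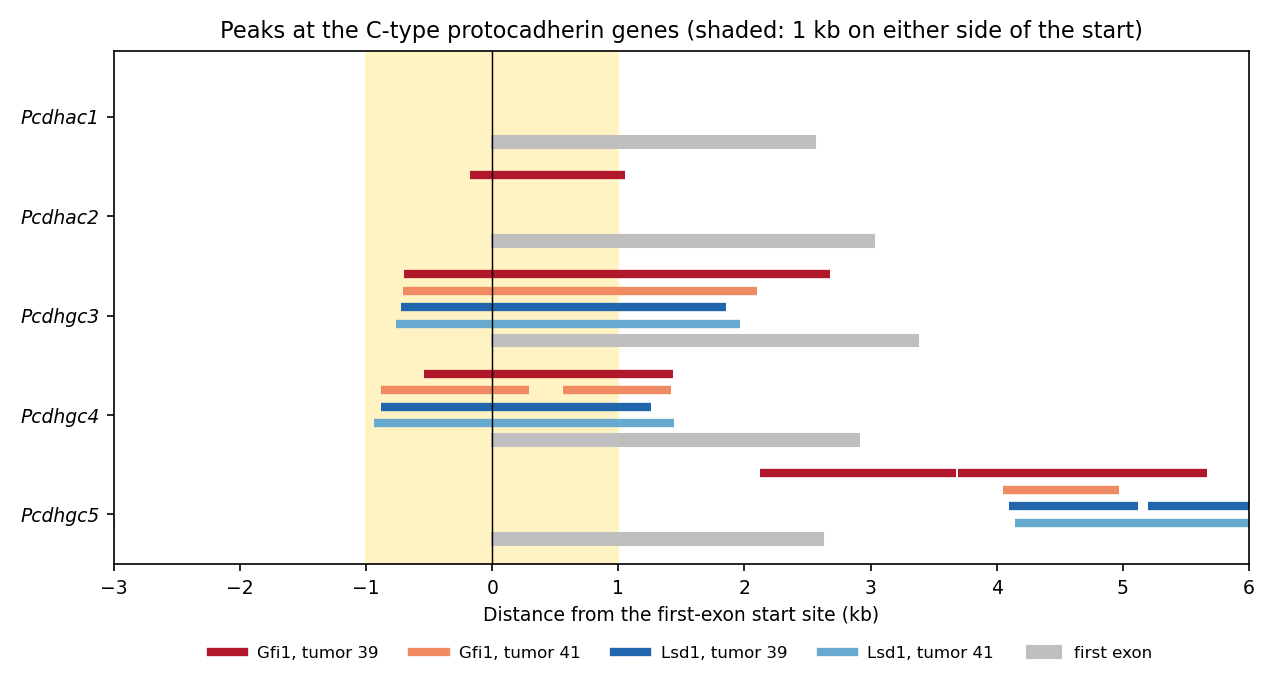
Extent of each peak (colored bars, 1 color per library) around the first-exon TSS of the 5 C-type genes, in kb from the TSS, with the first exon in grey and the window of 1 kb on either side shaded. Bars of all 4 libraries cross the start of Pcdhgc3 and Pcdhgc4, a single Gfi1 bar that of Pcdhac2, and no bar lies in the window of Pcdhac1 or Pcdhgc5.

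What the promoters share apart from the peaks was read from the genome sequence. The number of CpG dinucleotides within 500 bp of the TSS had a median of 34.5 in the 12 alternate Pcdha genes, 33.0 in the 19 alternate Pcdhg genes, 15.0 in Pcdhb and 44.0 in the C-type genes. Over all protein-coding genes the median was 41. It was 64.5 in genes with a peak in every list and 9 in genes with none. The highest count among the 58 genes, 67, was that of Pcdhgc3, while Pcdhgc4 with 42 had fewer than Pcdhac1 with 44 and Pcdhac2 with 55. Pcdhgc5 had 16. The peaks at C-type genes thus did not follow the CpG count gene by gene.

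Because promoters with few CpGs are occupied less often, the clusters were set beside other protein-coding genes with counts in the same range (10th to 90th percentile). For all 58 genes together this range was 11.7 to 40.3 CpGs, and of the 5554 protein-coding genes within it 29.6% had a peak in every list and 50.7% in none, against 2 and 52 of the 58. Both genes with a peak in every list, Pcdhgc3 with 67 CpGs and Pcdhgc4 with 42, lie above that range. The ranges of each cluster's alternate genes were added after the lists had been seen. Of 696 genes with counts like those of alternate Pcdha genes, 53.0% had a peak in every list and 20.7% in none, against 0 and 12 of the 12 Pcdha genes. Of 1829 genes with counts like those of alternate Pcdhg genes, 52.8% had a peak in every list and 22.0% in none, against 0 and 16 of 19. Of 3967 genes with counts like those of Pcdhb, 14.2% had a peak in every list and 71.0% in none, against 0 and 22 of 22. In the share without a peak, Pcdhb thus stood closer to genes with like counts than Pcdha did, though above them as well. Whether the CpG count bears on the lack of peaks in either cluster was not tested.

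The window from 250 bases before to 50 after the TSS was searched on both strands for CGCT, the core letters of the element known from clustered protocadherin promoters, and for AATC, the core letters of the Gfi1 site. CGCT was present at 56 of the 58 genes (96.6%), all but Pcdhb22 and Pcdhga12, and at 67.1% of all protein-coding genes. Among protein-coding genes with a peak in every list it was present at 89.2%, and among those with none at 34.0%. AATC was present at 52 (89.7%) and at 73.1% of all protein-coding genes. For AATC these shares were 67.2% in genes with a peak in every list and 84.0% in genes with none. These letters are short and frequent, and a match is not a binding site. CGCT itself contains a CpG, and median CpG counts were 64.5 in genes with a peak in every list and 9 in genes with none. The shares were not adjusted for this difference, so that they say nothing about a link between the letters and the peaks.

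The variable exons resemble each other, and reads from copies cannot be placed. Of all windows of 100 bases within 1000 bp of a TSS, the share that occurs once in the genome ran from 90.3% at Pcdhgb8 to 100% over the 58 genes, with a median of 100%. Of the 6 genes under 95%, 5 were Pcdha genes and 1 was Pcdhgb8. The windows of Pcdhb had 97.1% or more. These shares count exact repeats, and copies that differ by a few bases were not measured. The part of read placement in the lack of peaks was not tested.

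Peaks were next read across the locus, from 1000 bp before the first TSS of Pcdha to the end of Pcdhg (36929184 to 37841873). The locus held 13 Gfi1 and 8 Lsd1 peaks in tumor 39, and 7 and 10 in tumor 41. On all of chromosome 18 the same lists held 864, 778, 634 and 832 peaks. Pcdhg alone, 180 kb long, held 10, 6, 5 and 8 of them in that order. Peaks were thus scarce over Pcdha and Pcdhb and not over Pcdhg as a whole. When peaks of the lists that shared at least 1 bp were joined, the 913 kb held 15 sites, of which 12 lay in Pcdhg. At a TSS of a clustered protocadherin lay 6 of the 15 sites, 2 of them in all lists. Of the 9 sites away from these start sites, 4 were found in all 4 lists, 1 in 3 lists and 4 in a single list.

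**Figure D3:**
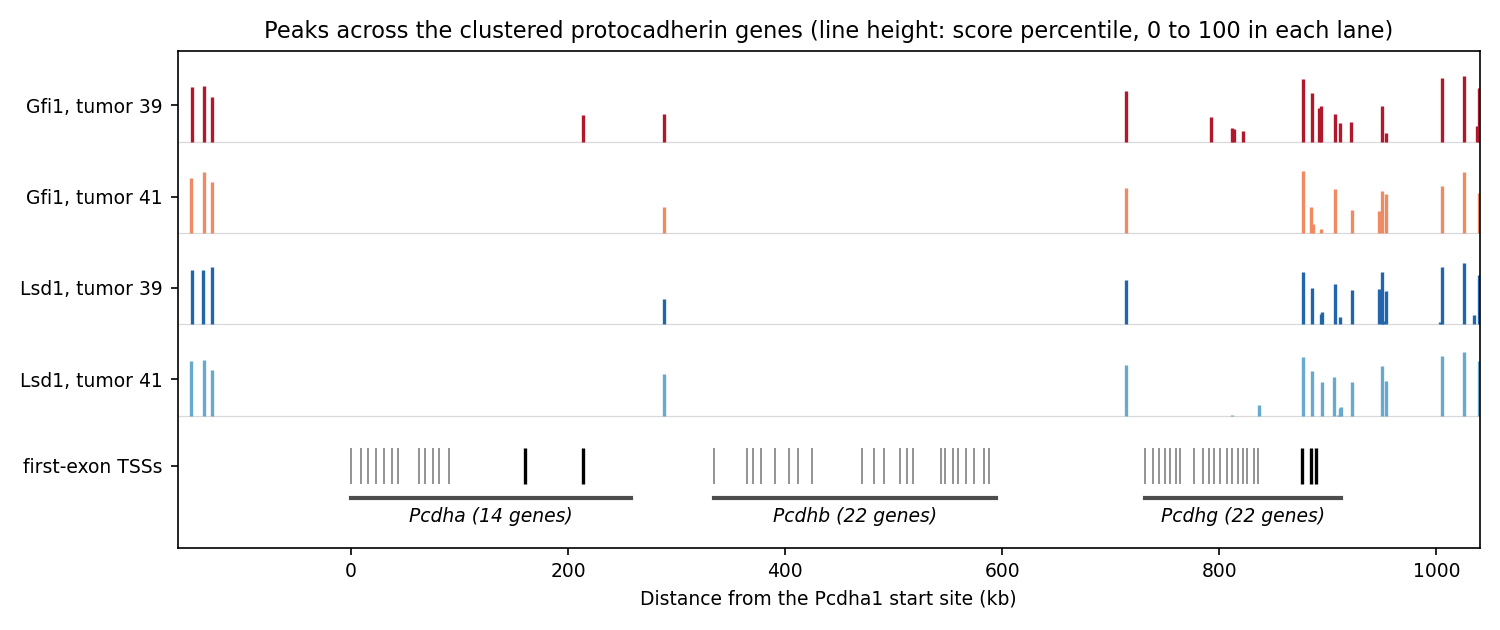
Peaks of the 4 libraries (colored lanes, the height of each line being the score percentile within its list) along the chromosome, in kb from the Pcdha1 start site, above the first-exon start sites of the 58 genes (C-type genes in black). The lanes are empty over the alternate Pcdha genes and over Pcdhb, hold 1 site between these clusters and 1 before Pcdhg, and fill from Pcdhgc3 onward.

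Between Pcdha and Pcdhb a single site was present, in all 4 lists, from 37217473 to 37218804. It began 29812 bp after the end of Pcdha and was 46134 bp from the nearest start site, that of Pcdhb1. Its Gfi1 peak stood at percentile 38.6 in tumor 39 and 35.8 in tumor 41, and its Lsd1 peak at 35.4 and 56.6. The values of the factors overlapped, and the widths ran from 817 to 1230 bp. No exon is annotated there. A distal enhancer of Pcdha is known to lie downstream of this cluster, but its position is not part of the annotation and was not matched to the site. Taf7, which encodes a subunit of the general transcription factor TFIID, held the only site between Pcdhb and Pcdhg. The peak over its start, from 37643405 to 37645200, stood at percentile 69.2 and 62.4 for Gfi1 and at 60.8 and 69.6 for Lsd1 in tumors 39 and 41. Slc25a2, the mitochondrial carrier gene beside it, had no start-site peak in any list.

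The other sites in all lists lay inside Pcdhg, behind the C-type first exons. The first, from 37823205 to 37825678, spanned the first of the constant exons (37825021 to 37825079), which every coding Pcdhg gene uses. A start of the gene Gm38182 is also annotated within 1000 bp of this site. The Gfi1 peak of tumor 41 ended before the constant exon, at 37824482, whereas peaks of the other lists covered that exon. The Gfi1 peaks stood at percentile 49.1 in tumor 39 and 5.05 in tumor 41, and the highest Lsd1 peaks at 16.9 and 45.9. In both factors the spread between the tumors was wider than the difference between the factors. The second, from 37835267 to 37837737, lay in the intron before the last constant exon and touched no annotated exon. Its Gfi1 peak stood at percentile 38.9 in tumor 39 and 60.5 in tumor 41, between which both Lsd1 values, 55.0 and 53.5, fell. A weaker site over the last constant exon (37839903 to 37841873), with percentiles from 10.5 to 26.6, was missing from the Gfi1 list of tumor 41. By contrast, none of the constant exons of Pcdha, which lie from 37156155 to 37187657, had a peak in any list.

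Downstream of Pcdhg, 3 sites in all lists lay within the gene Diaph1, which runs in the opposite direction and encodes an actin-nucleating formin. They began 9317, 36822 and 41139 bp after the end of Pcdhg. The middle one, from 37878695 to 37880901, had percentiles of 48.7 and 58.2 for Gfi1 and of 72.4 and 68.4 for Lsd1 in tumors 39 and 41, so that Lsd1 stood above Gfi1 in both tumors and the ranges did not overlap. At the nearest one, from 37851190 to 37852829, the same order was seen, with 27.9 and 31.5 for Gfi1 and 47.3 and 45.7 for Lsd1. A start of Diaph1 is annotated within 1000 bp of it. At the farthest one, from 37883012 to 37884488, Gfi1 stood at 12.4 and 54.0, on either side of the Lsd1 values of 46.3 and 48.0. At Pcdhgc3 the order was the opposite one, with Gfi1 above Lsd1. These orders compare ranks within lists of different lengths, in which a longer list can hold more weak peaks below a given one, rest on 2 tumors and were not tested. A control region for the clusters is known to lie on this side of Pcdhg, and its position was likewise not matched to these sites.

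**Figure D4:**
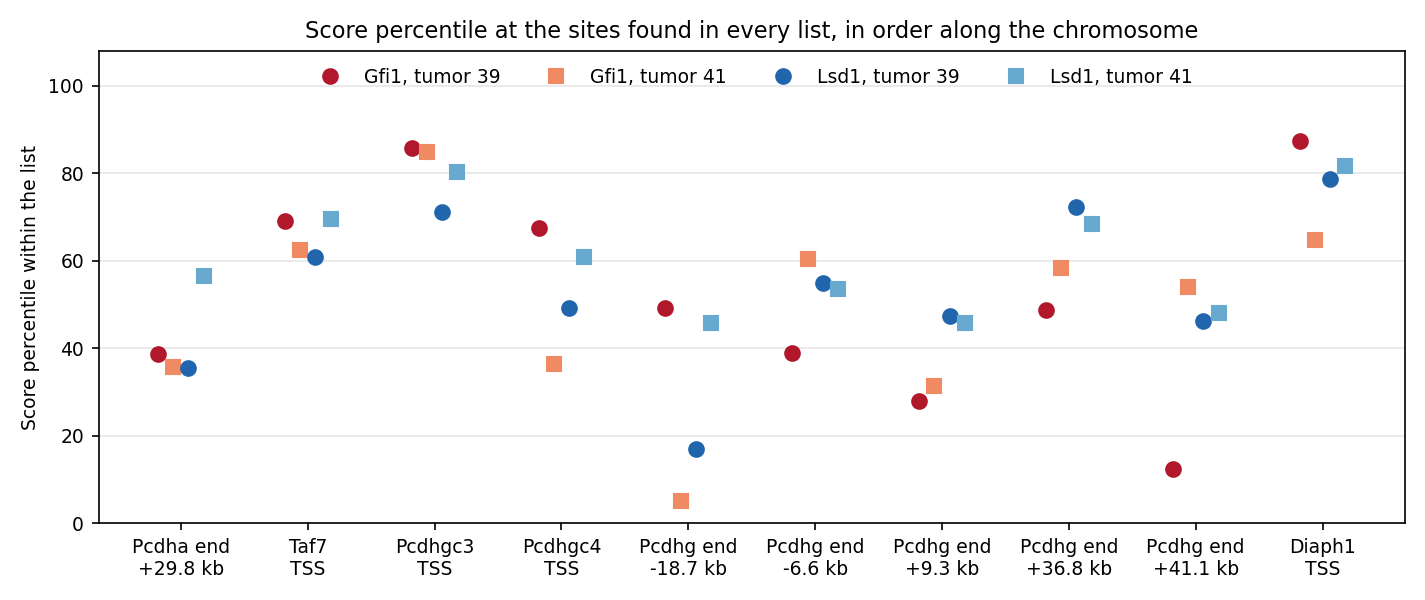
Score percentile within each list (vertical axis) at the 10 sites found in all 4 lists from Pcdha to the start of Diaph1, in order along the chromosome; each symbol is 1 library, with circles for tumor 39 and squares for tumor 41. Gfi1 stands above Lsd1 at Pcdhgc3 and below it at the sites 9317 and 36822 bp after the end of Pcdhg, and the factors overlap at the other 7.

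The empty stretches were long. In each list the longest stretch of the locus without a peak held all of Pcdhb and ran for 425 kb. The next held Pcdha and ran for 341 kb in the Gfi1 list of tumor 39, where the Pcdhac2 peak ends it, and for 414 or 415 kb in the other lists. The median distance between neighbouring peaks was 10.5 to 16.3 kb in the 4 lists. From 95.1% to 96.5% of all stretches between peaks were shorter than the one at Pcdhb, and between 1133 and 1316 stretches in a list were as long or longer. Taken by length alone, such stretches were thus not rare.

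They stood apart more in the promoters they hold. When protein-coding genes were read in order along each chromosome, Pcdhb1 to Pcdhb22 with Slc25a2 formed an unbroken run of 23 genes without a start-site peak in any list. Pcdha1 to Pcdhac1 formed a run of 16, of which 13 were Pcdha genes and 3 were gene models that read through the clusters, and Pcdhga1 to Pcdhga9 a run of 13. In the whole genome 43 runs were as long as the first, 64 as long as the second and 91 as long as the third. Of the 64 runs, none but that of Pcdha itself had a median CpG count as high as its 35.5. Of the 91, 2 had a median as high as the 30.0 of the Pcdhg run, and they were these same runs of Pcdha and Pcdhg. Of the 43 runs as long as that of Pcdhb, 2 had a median as high as its 15.0, the other being on the X chromosome.

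Most coding genes beside the clusters were occupied. Of 18 other protein-coding genes with a TSS within 200 kb of the clusters, between them or inside them, 13 had a start-site peak in all 4 lists. In none of the lists had 5 of them one, against 49.7% and 37.0% of all protein-coding genes. Ndufa2 and Ik share their peak, as do Hars2 and Hars, and Hdac3 and Rell2, so that the 13 genes rest on fewer peaks. The 5 were Slc25a2, Arap3, and Gm42416, Gm37013 and Gm37388, which are the read-through models and start inside Pcdha. Zmat2, which encodes a splicing protein and is the last coding gene before Pcdha, had Gfi1 peaks at percentile 77.0 and 83.5 and Lsd1 peaks at 74.6 and 76.4 in tumors 39 and 41. Diaph1, the first after Pcdhg, had Gfi1 peaks at 87.3 and 64.7 and Lsd1 peaks at 78.7 and 81.6. Hdac3, a histone deacetylase gene that follows it and shares its peak with Rell2, had Gfi1 peaks at 90.3 and 84.0 and Lsd1 peaks at 83.9 and 87.7.

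The non-clustered protocadherins, which are single genes with related extracellular parts, were read in the same way. Of 12 such genes, Gfi1 had a start-site peak at 11 in tumor 39 and at 6 in tumor 41, and Lsd1 at 9 in each tumor. In all lists 6 of the 12 were occupied, close to the 49.7% of all protein-coding genes, and in none 1, Pcdh12. Pcdh7, Pcdh10 and Pcdh17, adhesion genes of the developing nervous system, had peaks between percentile 97.7 and 99.9 that were 6186 to 7616 bp wide in all 4 lists. Each of these 12 peaks was wider and higher in its list than any at a clustered protocadherin. Pcdh9 stood between percentile 78.3 and 81.9. Pcdh20 stood at 57.2 and 70.2 for Gfi1 and at 47.8 and 64.6 for Lsd1 in tumors 39 and 41, although it has only 23 CpGs around its TSS. Pcdh18 and Pcdh19 had a peak for Gfi1 in tumor 39 alone. Pcdh1, the nearest of these genes on chromosome 18, stood at 44.9 and 21.5 for Gfi1 and at 43.8 and 67.1 for Lsd1.

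Genes of proteins that act on the clusters were read next, as small lists beside that same share. Of 11 genes of CTCF, cohesin and its loading and release factors, 9 had a start-site peak in all 4 lists, where 49.7% of all protein-coding genes had one. The 9 had 60 to 150 CpGs within 500 bp of the TSS, where the median of all protein-coding genes was 41. They were not set beside genes with like CpG counts. Ctcf, which encodes the factor that anchors loops at these promoters, stood at percentile 94.1 and 49.7 for Gfi1 and at 82.6 and 96.7 for Lsd1 in tumors 39 and 41. Nipbl, the cohesin loader, stood at 99.9 and 87.2 for Gfi1 and at 92.1 and 97.6 for Lsd1. Stag2, a cohesin subunit gene, had no peak for Gfi1 in tumor 41, and Stag1, a related subunit gene, had none in any list at its most 5′ TSS. Of the 4 genes chosen for silencing of the clusters, the DNA methyltransferase gene Dnmt3b, the chromatin gene Smchd1, the histone methyltransferase gene Setdb1 and the zinc finger gene Wiz, all had a peak in all lists. Smchd1 was the highest of them for each library, from percentile 91.1 to 96.3. These 4 genes had 57 to 114 CpGs around their start sites. Of 2 kinase genes whose products bind the Pcdha cytoplasmic part, Ptk2 was occupied in all lists and Ptk2b in none.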

How the data were processed

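Gfi1 and Lsd1 ChIP-seq libraries of MG tumors 39 and 41 were used, and the pooled MGB input has no list here. The authors aligned reads to mm10 with BWA 0.6.2 (-q20), merged files with Picard, removed duplicates and called peaks per library using MACS with default settings. For the high-confidence sets the methods of the study name the upper 20% of peaks by enrichment in each replicate, overlapping by at least 50%. The lists used here come before that stricter step. A cutoff at the upper 20% of the score is among the alternatives below, but it was not matched to the peak sets of the study. The deposited lists give a position and the authors' score per peak, whose definition is not given with it. Read depth per peak is unknown. Starts were converted to count from 1, and the percentile is the mid-rank of the score within its list.

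Genes, exons and TSSs came from GENCODE release M21 on GRCm38, the assembly behind mm10 (the study annotated genes with an earlier release), and sequence from RefSeq's GRCm38.p6. For each gene the most 5′ TSS was used. The 58 genes, the gene lists and the tests were chosen with earlier results of these data known. The genes named were the C-type genes, the genes with a start-site peak, the sites in all lists, the neighbours and the gene lists. Same-numbered libraries come from the same tumor per the labels. The share of protein-coding genes called in either list that both lists held was 87.7% and 86.2% within tumors and 91.3% and 89.3% for the factors across tumors. Calls were tested on simulated data with 21938 protein-coding genes, where 200 of 200 planted start-site peaks and 0 of 200 peaks beyond 1000 bp were called. Alternatives varied the window, the TSS, the distance measure, the score cutoff and the libraries. Python 3.11.15, numpy 2.4.6, scipy 1.17.1 and matplotlib 3.10.9 were used. No DNA sequence of the locus is printed.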

Additional observations from a re-analysis of the deposited data

Results flagged for a closer look

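The order of the tumors was opposite in the factors for 3 measures, each with 1 library per factor and tumor, and the difference was not tested. The share of clustered protocadherin genes with a start-site peak was 5.17 percentage points higher in tumor 39 than in tumor 41 for Gfi1, and for Lsd1 the same difference was -3.45. Over all protein-coding genes these differences were 10.6 and -3.01 points, in the same directions. At Pcdhgc3 the percentile in tumor 39 minus that in tumor 41 was 1.01 for Gfi1 and -8.99 for Lsd1. At Pcdhgc4 it was 31.1 for Gfi1 and -11.6 for Lsd1. In each of the 3 measures the higher value of a factor came from the tumor with its longer peak list. That was tumor 39 for Gfi1 (36836 against 25078 peaks) and tumor 41 for Lsd1 (33213 against 30367). List length and tumor cannot be told apart here.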

How the results depend on the processing

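The number of genes without a start-site peak in any list ran from 50 to 57 over all alternatives, and Pcdha and Pcdhb had 0 genes with a peak in every list under each of them. Windows of 500 and 2000 bp, the peak midpoint, any annotated TSS and, added after the lists had been seen, a peak anywhere on the first exon left 2 genes in every list and 4 other sites. The score cutoff mattered most. Such a cutoff can only lower the number of genes with a peak, in any set of genes. The share over all protein-coding genes was not taken under the alternatives, so the drop is not particular to these genes as far as shown. In the upper 50% of the score 1 gene of all and of Pcdhg (Pcdhgc3) and 1 other site (Taf7) remained in every list, the Lsd1 share was 2.59% and the Gfi1 minus Lsd1 difference was 0 points. In the upper 20% these were 0 genes and 0 sites, with shares of 1.72% for Gfi1 and 0.862% for Lsd1. Sites of which each list covers at least 50% numbered 3.

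Leaving out 1 library at a time, the Gfi1 share ran from 3.45% to 8.62%, the Lsd1 share from 3.45% to 6.90%, and their difference from -1.72 to 3.45 points. It turned negative without Gfi1 replicate 1 (-1.72) or without Lsd1 replicate 1 (-0.862), so that its direction rests on single libraries. Genes in every remaining list stayed at 2, genes in none ran from 52 to 54, and other sites from 4 to 5, the fifth lying over the last Pcdhg constant exon without Gfi1 replicate 2. With the tumor as a replicate block the difference was 0.862 points (exact paired permutation test, two-sided, p = 1, where 0.5 is the smallest possible). Neither fit could pass the usual threshold with these 4 libraries, so the block says nothing about stability.

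The lists hold only peaks past the authors' peak-calling threshold, so weaker binding at the empty promoters was not detectable here.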

Other observations

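Other gene families also formed long runs of protein-coding genes without a start-site peak in any list, and most of these had far fewer CpGs around their start sites than the clustered protocadherins. The longest run, of 236 genes on chromosome 2, ended among olfactory receptor genes and had a median of 3 CpGs. Of 122 runs of 10 genes or more, 15 had a median of at least the 11.7 CpGs that mark the 10th percentile of the clustered protocadherins. Besides the 3 protocadherin runs, these included a run of 37 genes on the X chromosome from Gm9 to Rhox13, with a median of 21, and a run of 20 on chromosome 11 from Krt24 to Gm11938, with a median of 18. These runs were chosen after their values had been seen and were not tested.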
